A study of Caenorhabditis elegans with 2 samples.

Results

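Of the 1626 peaks in the authors' deposited IDR list on build ce11, which keeps peaks by the irreproducible discovery rate, 248 lay on the X chromosome. They were taken by chromosome name alone, whatever their strength. Another 1363 IDR peaks lay on the 5 autosomes and 15 on the mitochondrial genome, which was left out of every comparison. The peaks came from chromatin immunoprecipitation followed by sequencing (ChIP-seq) of NHR-237 in Caenorhabditis elegans. Whole embryos of mixed stages and both sexes were used, in a single group of 2 biological replicates. The strain, OP228, has the genotype unc-119(ed3) III; wgIs228, so that each library came from animals with the unc-119(ed3) allele and the transgene wgIs228, which expresses NHR-237 tagged with enhanced green fluorescent protein (eGFP). It is a single strain, the labels do not give the cells in which the tagged protein is made, and no group without it was analysed here. Neither nhr-237 (chromosome V) nor unc-119 (chromosome III) is on X.

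NHR-237 belongs to the nuclear hormone receptors, zinc-finger transcription factors that form an unusually large family in nematodes and whose members mostly have no known ligand. The X chromosome of C. elegans is singled out in XX animals by a condensin-containing dosage compensation complex, which lowers its expression and loads at recruitment elements scattered along X. These elements carry a longer motif, called MEX, whose core of 8 letters is GCGCAGGG. X is also rich in transfer RNA (tRNA) genes, which RNA polymerase III transcribes through internal promoter elements called the A box and the B box. The recruitment elements themselves were not annotated in the sources used here, so sites are described below by their letters only.

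The strongest X peaks lay outside promoters, and of the 16 with a signal value above 400, 9 held the MEX core. The 40 bases around the core are shown for all 13 copies at X peaks above 400, followed by all 5 copies at X peaks up to 200, so that the letters next to the core can be compared. The core is in capitals and each line reads 5′ to 3′ on the strand given, with positions on ce11 and peaks numbered by their signal rank on X.

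X peak 1, chrX:2997107-2997146, minus strand: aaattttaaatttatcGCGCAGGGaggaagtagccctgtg
X peak 2, chrX:6296532-6296571, plus strand: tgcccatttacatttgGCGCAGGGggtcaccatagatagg
X peak 2, chrX:6296560-6296599, plus strand: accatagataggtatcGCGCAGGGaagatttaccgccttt
X peak 3, chrX:11094109-11094148, minus strand: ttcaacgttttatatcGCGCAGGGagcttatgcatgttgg
X peak 3, chrX:11094210-11094249, minus strand: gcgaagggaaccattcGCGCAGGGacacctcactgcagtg
X peak 4, chrX:14525884-14525923, minus strand: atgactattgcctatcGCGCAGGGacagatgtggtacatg
X peak 6, chrX:806658-806697, plus strand: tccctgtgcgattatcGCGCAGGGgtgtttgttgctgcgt
X peak 6, chrX:806734-806773, plus strand: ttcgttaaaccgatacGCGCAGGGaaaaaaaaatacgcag
X peak 9, chrX:8036385-8036424, minus strand: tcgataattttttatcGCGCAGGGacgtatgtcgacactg
X peak 9, chrX:8036419-8036458, plus strand: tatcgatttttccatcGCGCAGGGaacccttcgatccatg
X peak 10, chrX:4209250-4209289, minus strand: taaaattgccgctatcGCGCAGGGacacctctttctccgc
X peak 11, chrX:16682156-16682195, minus strand: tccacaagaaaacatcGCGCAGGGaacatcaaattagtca
X peak 13, chrX:5429574-5429613, plus strand: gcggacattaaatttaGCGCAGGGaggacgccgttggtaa
X peak 42, chrX:17181349-17181388, minus strand: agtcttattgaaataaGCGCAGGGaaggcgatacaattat
X peak 105, chrX:8811089-8811128, minus strand: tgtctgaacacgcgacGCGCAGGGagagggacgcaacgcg
X peak 112, chrX:2364883-2364922, minus strand: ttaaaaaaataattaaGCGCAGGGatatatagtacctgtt
X peak 142, chrX:4395599-4395638, plus strand: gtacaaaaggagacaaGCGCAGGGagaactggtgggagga
X peak 231, chrX:1223898-1223937, minus strand: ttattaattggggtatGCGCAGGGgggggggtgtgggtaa

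Of the 13 copies at the peaks above 400, 10 have TC before the core, 11 have A after it and 9 have both. The 3 without TC are the first copy at X peak 2, the second at X peak 6 and the copy at X peak 13. Of the 5 copies at the weaker peaks, 0 have TC before the core and 4 have A after it. The 3 copies at X peaks between 200 and 400 are not shown. All 3 have TC before the core and 2 have A after it. A second set of non-promoter X peaks lay at tRNA genes. Their B box, searched as GTTCGANNC on either strand, is in capitals at the 2 such peaks of highest signal.

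X peak 37, chrX:8404531-8404579, plus strand: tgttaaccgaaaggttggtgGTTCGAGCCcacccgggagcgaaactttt
X peak 47, chrX:16209761-16209809, minus strand: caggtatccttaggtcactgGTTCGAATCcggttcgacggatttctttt

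The strength of a peak is its signal value, the number the authors' peak caller gave it, which has no unit that the sources used here explain. It was compared only within a list. The lists hold no read counts, so sequencing depth is unknown. The 95% intervals below are Clopper-Pearson for shares, conditional exact for odds ratios and a normal approximation for Woolf's test. All of these intervals cover counting error only. The tests count peaks, so they do not speak to how embryo preparations vary. P-values are from two-sided Fisher's exact tests, Benjamini-Hochberg adjusted over 11 comparisons with a threshold of 0.05, unless another test is named. X is 1 chromosome set against 5, the ratio of X to autosomal DNA in these embryos was not measured, and the control alignment was not analysed here.

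The X peaks were less often at promoters than the autosomal peaks. A summit counted as a promoter summit when it lay at most 500 bp before, or 200 bp after, the 5′ end of any protein-coding transcript, a class that held 62.9% of all 1611 nuclear IDR summits. On X, 102 of 248 summits were in it, or 41.1% (34.9 to 47.5), against 911 of 1363 on the autosomes, or 66.8% (64.3 to 69.3). The odds ratio was 0.347 (0.260 to 0.461, adjusted exact p = 5.05e-13). This comparison took no account of gene density, and the part of X or of the autosomes inside promoter windows was not measured. The lowest share on any autosome was 63.2%, on chromosome IV. Without the peaks within 200 bp of a tRNA gene, the shares were 47.1% on X and 67.4% on the autosomes (adjusted exact p = 1.96e-07).

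The 146 non-promoter X peaks comprised 107 whose summit was in no protein-coding gene, 36 with an intronic summit and 3 with an exonic one. They lay a median of 1920.5 bp from the nearest protein-coding 5′ end, with quartiles of 984.5 and 3431 bp. The most distant, X peak 13 in an exon of the polyketide synthase gene pks-1, was 15202 bp from that of C41A3.2. Of the 102 promoter summits, 96 were upstream of the 5′ end, at a median of 212 bp, and 10 lay in the windows of more than 1 gene.

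The signal of X peaks ranged from 72.6 to 812 with a median of 109.7, and that of autosomal peaks from 72.6 to 793 with a median of 104.8. By class, the medians were 114.8 at X non-promoter peaks, 101.3 at autosomal non-promoter peaks, 105.4 at X promoter peaks and 106.6 at autosomal promoter peaks. The middle of the distributions thus differed little, and the upper end differed more. Above a signal of 200 lay 29 of 146 X non-promoter peaks (19.9%), 22 of 452 autosomal non-promoter peaks (4.87%), 10 of 102 X promoter peaks and 102 of 911 autosomal promoter peaks. Above 400 lay 16 X non-promoter peaks, 1 autosomal non-promoter peak, 0 X promoter peaks and 10 autosomal promoter peaks.

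**Figure D1:**
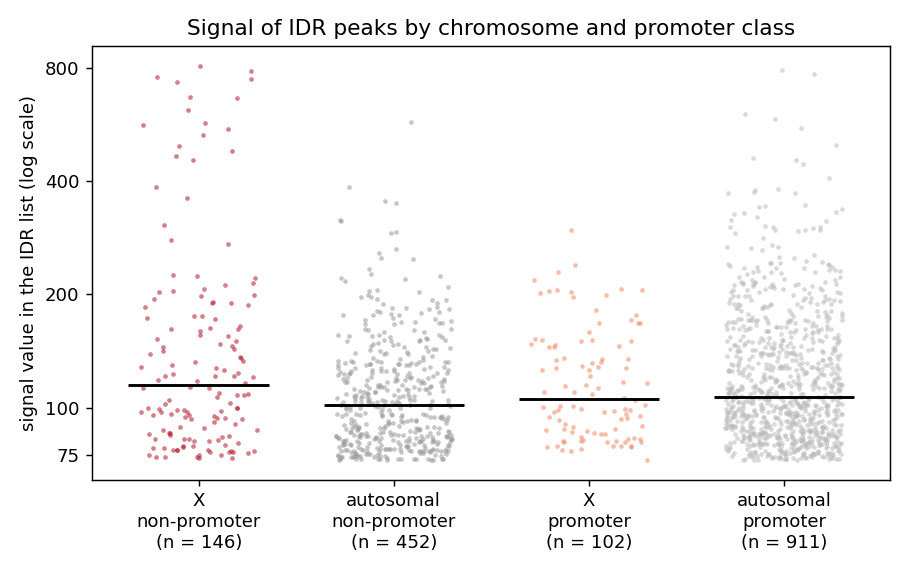
Each point is 1 IDR peak, placed by its signal value on a log axis, in 4 classes set by chromosome and by promoter, with a bar at the median of the class. The 16 X non-promoter peaks above 400 stand over a median of 114.8, while the highest X promoter peak is at 297.

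Whether a class lay higher was tested by the share of its peaks above 105.3, the median of all nuclear IDR peaks. It was 81 of 146 at X non-promoter peaks, or 55.5% (47.0 to 63.7), against 204 of 452 at autosomal non-promoter peaks, or 45.1% (40.5 to 49.9). This difference did not pass the threshold (odds ratio 1.51, 1.02 to 2.25, adjusted exact p = 0.079). It did pass with the upper quartile in place of the median, where 35.6% of X and 17.7% of autosomal non-promoter peaks lay above it (odds ratio 2.57, adjusted exact p = 4.72e-05). It also passed in the 1626 top peaks of each replicate alone, with 57.4% against 42.8% in replicate 1 (adjusted exact p = 0.0049) and 56% against 40.7% in replicate 2 (adjusted exact p = 0.0032). Without the 18 peaks that hold the core, the IDR shares were 51.5% on X and 45.1% on the autosomes (adjusted exact p = 0.60).

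At promoter peaks no difference in signal passed the threshold. Above the median were 51 of 102 X promoter peaks, or 50% (39.9 to 60.1), and 51.5% of autosomal promoter peaks (odds ratio 0.942, 0.612 to 1.45, adjusted exact p = 0.83). Within X, the difference between non-promoter and promoter peaks did not pass it either (odds ratio 1.25, 0.727 to 2.14, adjusted exact p = 0.54). The odds ratio of non-promoter to promoter peaks was 1.25 on X and 0.775 on the autosomes, and the 2 did not differ past the threshold (ratio 1.61, 0.923 to 2.80, Woolf's chi-square test on peak counts, adjusted p = 0.17). In the top peaks of replicate 1 alone that ratio was 2.20 (Woolf's chi-square test, adjusted p = 0.0084) and in those of replicate 2 alone 2.25 (chi-square test, adjusted p = 0.0085).

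Individually, the strongest X peaks were near the top of each replicate list. The 16 non-promoter X peaks above 400 had signals from 218 to 425 in replicate 1, where none ranked below 25 of 10872 peaks. In replicate 2 they had signals from 204 to 419, and none ranked below 30 of 30000 peaks. X peak 17, the next in signal at 386, had 188 in replicate 1 and 197 in replicate 2, close below the lowest of the 16. X peak 1, in an intron of Y41G9A.17 at chrX:2996889-2997387, had a signal of 812, with 399 in replicate 1 and 409 in replicate 2. X peak 2, in an intron of mom-1, whose product is needed for Wnt secretion, had a signal of 786, with 425 in replicate 1 and 353 in replicate 2. X peak 3, outside genes with its nearest 5′ end at W02H3.3, had a signal of 756, with 339 in replicate 1 and 419 in replicate 2. These were among the 8 highest peaks of each replicate list, X and autosomes together.

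X peak 9, at chrX:8036146-8036673, had a signal of 571, with 270 in replicate 1 and 294 in replicate 2. The nearest protein-coding 5′ end, 4909 bp downstream of the summit, was that of xol-1, the switch gene that reads the number of X chromosomes in sex determination. A noncoding RNA gene, C18A11.13, was nearer, with the summit 270 bp upstream of its start. X peak 4, with a signal of 748, lay 737 bp upstream of nspc-17, and X peak 6, with a signal of 671, was nearest to gtr-1. X peak 14, with a signal of 480, lay 1005 bp upstream of fbxb-58, a gene of the F-box family. The nearest 5′ ends to X peaks 5, 7, 8, 10, 11, 12 and 15, with signals between 466 and 734, were those of K02D3.1, ZK899.6, F55G7.5, F20B6.9, F22H10.2, F19H6.5 and T27A8.7. X peak 16, with a signal of 456, lay 509 bp upstream of ftt-2, just outside the promoter window of 500 bp. A nearest gene is a position only, and nothing here ties these peaks to the expression of any gene.

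**Figure D2:**
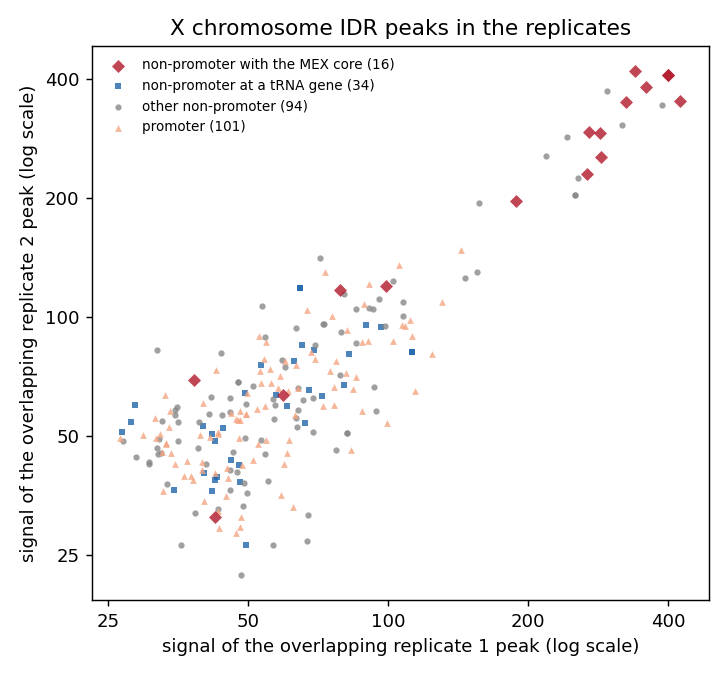
Each point is 1 of the 245 X peaks overlapped by a peak of each replicate list, with replicate 1 signal on the x axis and replicate 2 signal on the y axis, both log scales. The non-promoter peaks with the MEX core reach 425 and 419 at the upper right, and the promoter peaks and tRNA peaks stay in the lower left group.

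The MEX core was more frequent at X non-promoter peaks than at autosomal ones. It was searched on either strand within 100 bp of the summit, a window of 201 bp. Of the X non-promoter peaks 16 of 146 held it, or 11% (6.4 to 17.2), against 2 of 452 autosomal non-promoter peaks, or 0.442% (0.0536 to 1.59). The odds ratio was 27.5 (6.34 to 250, adjusted exact p = 4.37e-08). Against the X promoter peaks, of which 1 of 102 held it, the odds ratio was 12.3 (1.86 to 526, adjusted exact p = 0.0044). The motif and its tests were chosen with earlier results of these data known, so the p-values here are not from an independent test. The size of the difference depended on the letters searched. TCGCGCAGG with up to 1 mismatch was at 16 of 146 X non-promoter peaks, or 11%, and at 16 of 452 autosomal non-promoter peaks, or 3.54% (odds ratio 3.35, adjusted exact p = 0.0044). None of the 911 autosomal promoter peaks held the exact core, which allows a share of up to 0.404%. Of all windows of that length, 0.0851% on X and 0.0553% on the autosomes held the core. The mean GC content of the windows was 45.5% at X non-promoter peaks and 45.2% at autosomal non-promoter peaks. Both autosomal peaks with the core were on chromosome III, with signals of 227 and 72.8.

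Presence of the core went with signal. It was in 9 of the 16 X non-promoter peaks above 400, in 3 of the 13 between 200 and 400, and in 4 of the 117 up to 200. X non-promoter peaks with the core had a median signal of 524 and those without it 108.0. With the same search for TCGCGCAGG with up to 1 mismatch, 12 of the 16 peaks above 400 had a match, which is 75% (47.6 to 92.7), against 0.847% of all X windows. The other 4 of the 16, X peaks 5, 7, 12 and 16, had at best 3 mismatches to it. The choice of 400 was made after the signals were seen, and these shares carry no test. By replicate, 15 of 148 X non-promoter peaks among the top 1626 of replicate 1 held the core, and 15 of 150 among those of replicate 2.

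**Figure D3:**
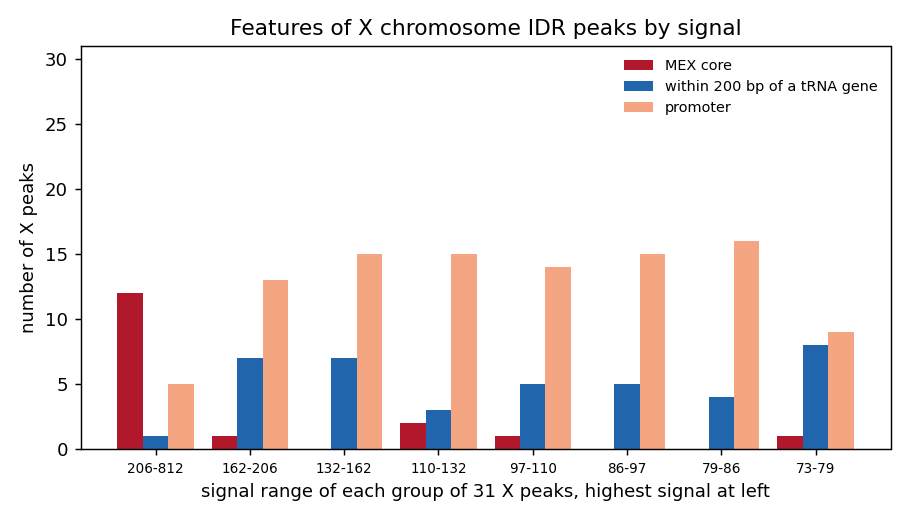
The 248 X peaks were divided by signal into 8 groups of 31, highest at left, and the bars count the peaks in each that held the MEX core, lay within 200 bp of a tRNA gene or were in a promoter. The highest group holds 12 of the 17 X peaks with the core, 1 tRNA peak and 5 promoter peaks.

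The 17 X peaks with the core held 21 copies of it, and 4 of them held 2 copies each. The centre of the core lay a median of 35 bp from the summit and at most 86 bp away, and 17 of the 21 were within 50 bp. Beyond 100 bp the counts fell away, to 2 copies between 100 and 200 bp on one side of the 146 non-promoter summits and 0 on the other.

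**Figure D4:**
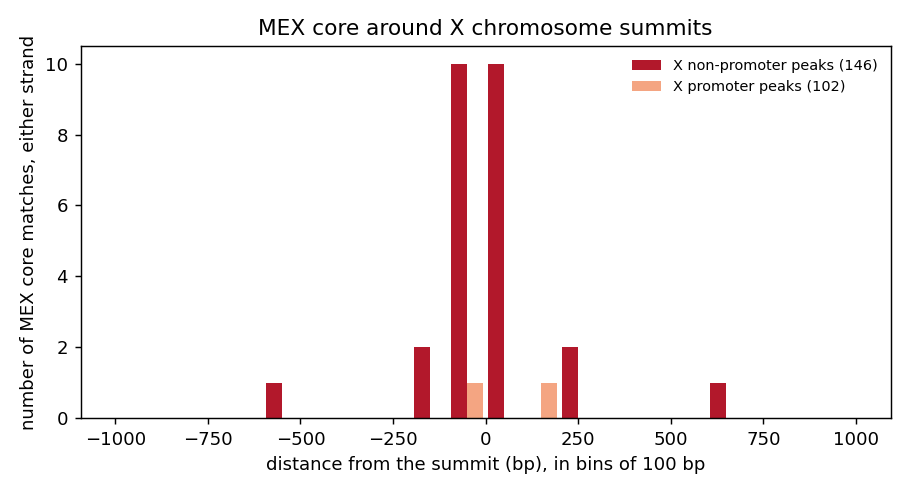
Bars count MEX core matches on either strand in bins of 100 bp around the summits of X peaks, for non-promoter and promoter peaks apart. Of the matches around non-promoter summits, 10 lie in each of the 2 central bins.

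The letters next to the core were shared by most of the 21 copies at X peaks. The base before it was C at 15, the base before that T at 15, both together at 13, and the base after it A at 17. AG followed the core at 6 copies, and 3 had TC before it as well as AG after it. At the other 9 of the 12 neighbouring positions counted, the commonest base was at 6 to 12 copies. On the whole X chromosome the core occurs 81 times, of which 21, or 25.9% (16.8 to 36.9), lay within 100 bp of an IDR summit. Of its 233 occurrences on the autosomes 2 did, or 0.858% (0.104 to 3.07). Counted against every summit of the pooled list, which was called on both replicates together and includes background regions, the shares were 33 of 81 on X, or 40.7%, and 21 of 233 on the autosomes, or 9.01%. The core preceded by TC occurs 19 times on X, with 13 at an IDR summit, or 68.4% (43.4 to 87.4), and 6 times on the autosomes, with 0 at one, which allows a share of up to 45.9%. With A after it as well, it occurs 13 times on X, with 11 at an IDR summit, or 84.6% (54.6 to 98.1), and 2 times on the autosomes, with 0 at one. The A was picked from the copies at the peaks. TC opens the longer word TCGCGCAGG searched above, and the motifs were chosen with earlier results of these data known. These shares therefore describe the sites and were not tested.

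Peaks at tRNA genes formed another set of X non-promoter peaks, while 94 of the 146 neither held the MEX core nor lay at a tRNA gene. Those 94 had a median signal of 111.2, with 16 above 200 and 7 above 400. The summit lay within 200 bp of a tRNA gene at 36 of 146 X non-promoter peaks, or 24.7%, against 13 of 452 autosomal ones, or 2.88%. Of the 276 tRNA genes on X 41, or 14.9%, had an IDR summit between 500 bp upstream and 200 bp downstream of their start, against 21 of 336 on the autosomes, or 6.25%. The B box was within 100 bp of the summit at 24 of 146 X non-promoter peaks, or 16.4% (10.8 to 23.5), at 5.75% of autosomal ones (3.79 to 8.32) and in 1.41% of all X windows. Of those 24 peaks, 22 were also at an annotated tRNA gene. None of the 24, and none of the 36, held the MEX core.

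The tRNA peaks were not among the strongest. Their median signal at non-promoter sites was 98.2 and their highest 203.5, at X peak 37 beside tRNA gene WBGene00023042, with 112 in replicate 1 and 81.7 in replicate 2. None was among the 20 highest X non-promoter peaks, of which 11 held the core. The tRNA gene of highest signal, WBGene00022908, lay beside a promoter peak, X peak 28, at 218. The tRNA genes WBGene00022947 and WBGene00023117 were at promoter peaks too, with signals of 199 and 196. Many tRNA genes are near-identical to each other, and the sources used here do not say how reads with several matches were assigned. Of 33 small nucleolar RNA genes on X 1 was at a peak, or 3.03%, against 14.4% on the autosomes. It was D2021.6, at a signal of 110, and its summit was also in the promoter of sdha-1. Of 74 microRNA genes on X 2 were, or 2.70%, against 4.81% on the autosomes. They were mir-54 and mir-55, at a single peak of signal 128. Of 3 small nuclear RNA genes on X 0 were, against 7.14% on the autosomes. These shares were not tested, and those of small nucleolar and microRNA genes on X lie near the 4.03% of protein-coding genes on X.

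A scan of all 2080 words of 6 letters within 100 bp of the summit, adjusted over those words, set X against autosomal non-promoter peaks. Of these, 7 words (0.337%) were more frequent on X and 7 (0.337%) less frequent. Without adjustment 188 words had an exact p under 0.05. Among the more frequent, GCAGGG was at 18.5% of X and 5.97% of autosomal peaks (adjusted exact p = 0.0099) and CAGGGA at 15.8% of X and 4.20% of autosomal peaks (adjusted exact p = 0.0099). GCAGGG lies inside the MEX core, so the 16 X and 2 autosomal non-promoter peaks that hold the core hold it too. CAGGGA is the end of the core followed by A. These calls are therefore not independent of the core counts above. GGTTCG, which shares GTTCG with the B box, was at 17.8% of X and 6.42% of autosomal peaks (adjusted exact p = 0.034). AGGTAT was at 7.53% of X and 1.11% of autosomal peaks and GGGCAA at 18.5% of X and 7.08% of autosomal peaks (adjusted exact p = 0.038 for each).

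Among the words less frequent on X, CGGCGC was at 0.685% of X and 11.1% of autosomal peaks (adjusted exact p = 0.0099). AGTGTA was at 3.42% of X and 13.7% of autosomal peaks, AGACAC at 11.6% of X and 26.8% of autosomal peaks, AGAGAT at 17.1% of X and 32.5% of autosomal peaks, and CGTCTC at 21.9% of X and 41.6% of autosomal peaks. Fewer words were called in the separate lists. In the top peaks of replicate 2 alone 2 words were called, 1 of them among the 14, and in those of replicate 1 alone 11 were, 8 of them among the 14.

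The GAGAGA repeat was common at X peaks of both classes, at 53.9% of X promoter peaks (43.8 to 63.8) and 29.2% of autosomal promoter peaks (26.3 to 32.3). At non-promoter peaks the order was the other way, with 46.6% on X (38.3 to 55) and 64.4% on the autosomes (59.8 to 68.8). The non-promoter difference was one of the 7 lower words of the scan (adjusted exact p = 0.038), and the promoter one was not tested. Of all windows, 9.50% on X and 10.1% on the autosomes held it. The word TTGCAC was at 9.59% of X non-promoter peaks, 22.5% of X promoter peaks (14.9 to 31.9) and 10.4% of all X windows. AGGTCA, the binding letters of many nuclear receptors, was at 6.16% of X non-promoter peaks (2.86 to 11.4), 6.86% of X promoter peaks (2.80 to 13.6) and 5.30% of all X windows. The GATA-factor site TGATAA was at 4.79% of X non-promoter peaks and 2.94% of X promoter peaks, against 19.1% of all X windows. TATAAA, another AT-rich word, was also lower at peaks, at 13.7% of X non-promoter and 10.8% of X promoter peaks, against 22.8% of all X windows. No other test was run on these words.

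The strongest X promoter peak was well below the strongest non-promoter ones. It lay 232 bp upstream of nipi-3, which encodes a Tribbles-type pseudokinase, with a signal of 297 in the IDR list, 143 in replicate 1 and 148 in replicate 2. Next came puf-9, a Pumilio-family RNA-binding protein gene, at 240, and dpy-23, which encodes a subunit of the AP2 clathrin adaptor, at 229. They were followed by sor-3 at 218, rme-4, a gene of receptor-mediated endocytosis, at 206, zfp-3 at 205, ZC506.1 at 205, and bet-2, a bromodomain gene, at 204. The ribosomal protein gene rpl-11.2 and serp-1.1 had peaks at 203 and 202. At rpl-11.2 the signal was 73.2 in replicate 1 and 130 in replicate 2. The last of the 15 were C28G1.2 with the exocyst gene sec-15 (199), ZK1193.2 (196), F17E5.2 (182), the kinesin gene klp-13 (176) and sym-4 (171).

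Of 2731 protein-coding genes on X, 110, or 4.03%, had a promoter peak of the IDR list, against 1226 of 17242 on the autosomes, or 7.11%. The gene lists below were drawn up by gene name, mostly by prefix, so genes of the same kind with other names are not counted. Genes of sex determination and dosage compensation had one at 2 of their 6 listed members on X, against 2 of 17 on the autosomes. Those on X were sdc-2, which brings the dosage compensation complex to X, with a signal of 121, and the X signal element ceh-39, a homeobox gene, with 85.8. At sdc-2 the replicate signals were 53.0 in replicate 1 and 73.3 in replicate 2, and at ceh-39 they were 48.5 in replicate 1 and 42.4 in replicate 2. The genes xol-1, sex-1, fox-1 and sdc-1 had none. The homeobox list, genes named ceh-, had 1 of 18 members on X with a peak, the same ceh-39, against 2.22% on the autosomes. The nuclear receptor list, genes named nhr-, had 2 of 23 members on X with one, nhr-1 (148) and nhr-32 (87.6), against 4.47% on the autosomes.

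Housekeeping lists had few members on X, and their counts stand beside the 4.03% of all X protein-coding genes with a peak. The respiratory chain list took genes named nuo-, cox-, atp-, cyc-, ucr-, sdha- or sdhb-. All 3 of its members on X had one, against 38.2% of the autosomal members. These were sdha-1 (110), the flavoprotein subunit gene of succinate dehydrogenase, ucr-2.2 (101) and ucr-2.1 (97.2), whose summit was also in the window of nmat-1. Of 3 vacuolar ATPase genes 2 had one, vha-12 (168) and vha-15 (159), against 29.4% of the autosomal members. Of 2 ribosomal protein genes 1 had one, rpl-11.2, against 78.9% of the autosomal members. Of 5 chaperone genes 2 had one, against 38.3% of the autosomal members. They were dnj-14 (132), whose summit was also in the window of glit-1, and hsp-3 (98.3), which encodes an Hsp70 of the endoplasmic reticulum. No proteasome gene of the list is on X. Among collagen genes 0 of 27 on X and 3 of 129 on the autosomes had a peak, among acetylcholine receptor genes 0 of 7 on X and 0 of 18 on the autosomes, and among potassium channel genes 0 of 14 on X and 0 of 40 on the autosomes. Lists this short cannot show a share below that of all X genes.

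X peaks were less often in the middle of their chromosome than autosomal peaks. The central 50% of X held 106 of 248 peaks, or 42.7% (36.5 to 49.2), against 818 of 1363 in the central 50% of the autosomes, or 60.0% (57.4 to 62.6). The odds ratio was 0.498 (0.374 to 0.660, adjusted exact p = 2.28e-06). This comparison took no account of where genes lie along X or the autosomes. The 18 bins of 1 Mb along X held between 7 and 20 peaks, with a median of 13. X had 14 peaks per Mb, within the range of 10.5 to 22.6 on single autosomes.

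Neighbouring X summits lay a median of 44.8 kb apart, with quartiles of 15.1 and 106 kb, against a median of 34.4 kb on the autosomes. The widest X gap was 366 kb. A second summit lay within 10 kb of 90 of 248 X summits, or 36.3% (30.3 to 42.6), and of 39.4% of autosomal summits (36.8 to 42.0), a difference that did not pass the threshold (odds ratio 0.876, 0.654 to 1.17, adjusted exact p = 0.54). At 20 kb it did pass, with 48.4% on X and 57.4% on the autosomes (odds ratio 0.697, adjusted exact p = 0.022). The 16 X non-promoter peaks above 400 were far from each other, with gaps between 332 and 1740 kb and a median of 1212 kb. Peaks with the core were found in 12 of the 18 bins.

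**Figure D5:**
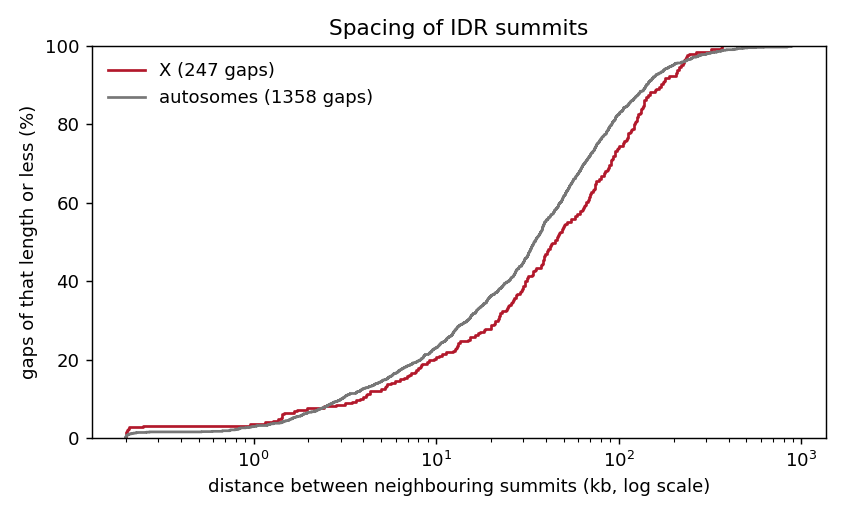
The lines give the share of gaps between neighbouring IDR summits that are of a given length or less, on a log axis in kb, for X and for the 5 autosomes. The X line runs to the right of the autosomal one over most of its length, with medians of 44.8 kb on X and 34.4 kb on the autosomes.

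Nearly all X peaks were found in both replicates, as were nearly all peaks of the list, which was made by agreement between lists. A peak of each replicate overlapped 245 of 248 X peaks by at least 1 bp, or 98.8% (96.5 to 99.7), and 99.1% of the 1611 nuclear IDR peaks. This rule is lenient, since the replicate lists hold 10872 peaks in replicate 1 and 30000 in replicate 2. The exceptions were X peaks 143 and 158, with signals of 99.6 and 96.3 and none in replicate 2, and X peak 245, with a signal of 73.9 and none in replicate 1. With summits required to lie within 100 bp, the X share was 91.5%. A peak among the top 1626 of each replicate overlapped 181 X peaks, or 73.0% (67.0 to 78.4), and 71.1% of autosomal peaks (68.6 to 73.5), where 71.4% of all nuclear IDR peaks met this rule (odds ratio 1.10, 0.804 to 1.51, adjusted exact p = 0.65).

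Across the 245 X peaks with a partner in both lists, signal in replicate 1 and replicate 2 had a Spearman's rho of 0.723 and a Pearson's r of 0.851 on the log2 scale. For X non-promoter peaks rho was 0.754 (144 peaks) and for X promoter peaks 0.676 (101 peaks), while for the 1351 autosomal peaks it was 0.566. These are descriptions across peaks of the same 2 libraries, and some neighbouring X peaks share a replicate peak.

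The list ends without a gap in signal. The lowest X peaks inside it had signals of 72.6, 73.5 and 73.6, and the highest X peaks of the pooled list outside it had 72.6, 72.2 and 72.0. The pooled list held 5705 X peaks in all, and 5457 of them were outside the IDR list. In 2 intervals the list gave 2 summits each, so that X peaks 1 and 19 share chrX:2996889-2997387, and X peaks 16 and 35 share chrX:11605690-11606180. The deposited summit was within 1 bp of the peak's midpoint for 230 of 248 X peaks, or 92.7%, but for 4 of the 16 strongest non-promoter ones.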

How the data were processed

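Peak lists of 2 biological replicates, a pooled list and an IDR list were deposited by the authors. The signal value of each peak is as deposited, as the caller wrote it, and was not rescaled. Peaks were called against a control alignment, per the read-me texts the authors deposited. The sources used here name no aligner, caller or IDR threshold. Positions are 1-based on ce11, with WBcel235 sequence from RefSeq and gene models of Ensembl release 115. The 6-mers and motifs were counted on both strands. Fisher's exact tests, Woolf's test and Benjamini-Hochberg adjustment were run in scipy 1.17.1 with numpy 2.4.6, pandas 2.3.3 and Python 3.11.15, and figures drawn in matplotlib 3.10.9. They were tested on simulated data. Named genes were those at the 15 strongest X peaks of each class and up to 4 members of each list. Members, lists, motifs and tests were chosen with earlier results of these data known. Alternatives were single replicates, the IDR peaks of higher signal, other windows, quantiles, distances and overlap rules. Removal of core or tRNA peaks, and 1 peak for each interval, were added after seeing the data.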

Additional observations from a re-analysis of the deposited data

How the results depend on the processing

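Of 86 repeats of the 11 tests, 67 left the direction and the call as they were. That count includes the repeats at peak midpoints, which gave the same counts as the main run because most summits are midpoints. It also includes high signal over all X peaks with other promoter windows, which that test does not use. Such repeats say nothing about how stable a result is. The lower promoter share on X (odds ratios 0.277 to 0.451), its lower central share (0.484 to 0.540) and both MEX core comparisons (3.35 to 84.1 against autosomal non-promoter peaks, 5.42 to 12.3 against X promoter peaks) kept direction and call in every alternative run. The value of 3.35 is for TCGCGCAGG with up to 1 mismatch. The value of 84.1 has 0.5 added to each count, because 0 autosomal peaks held the core within 50 bp. The largest adjusted exact p among these, 0.047, belonged to the comparison with X promoter peaks. The share of X non-promoter peaks of high signal gained a call in 6 alternatives, with odds ratios of 1.80 to 1.85 in single replicates, 2.77 in the 813 strongest IDR peaks, 1.54 with promoters of 300 and 100 bp, 2.57 at the upper quartile and 1.76 without tRNA peaks. The difference of class contrasts gained one in the same 6, at 2.20 to 2.25, 2.67, 1.95, 2.47 and 1.96. High signal over all X peaks gained a call in those 813 (1.61) and at the upper quartile (1.53), and spacing gained one at 20 kb (0.697). Directions turned, with no call, for X promoter peaks of high signal in those 813 (1.04), with promoters of 1000 and 200 bp (1.02) and at the upper quartile (1.04), and for peaks at the top of both replicates with summits within 100 bp (0.960). The number of 6-mers called, 14, was 2 to 11 in single replicates, 9 with promoters of 300 and 100 bp, 8 with promoters of 1000 and 200 bp and 6 within 50 bp of the summit. Support of X peaks by both replicates was 91.5% with summits within 100 bp and 100% in those 813. The cause of these changes was not tested. Depth is unknown, and the summits of most X peaks are midpoints, which limits how closely windows follow the signal.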
